A study of Mus musculus with 2 samples.

Results

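A transcript model from long-read RNA sequencing is called incomplete when its introns are a run of consecutive introns of a longer known transcript. The models described here are the incomplete ones that keep the 3′ end: their introns match the last introns of a longer transcript, and 1 or more introns are missing at the 5′ end. They were chosen by the authors' class (incomplete splice match, suffix subtype) in both libraries, by more than 1 exon, by an identical intron chain in both libraries and by a count of at least 5 reads in each. This gave 1376 models in 751 genes, out of 113729 models matched between the libraries, of which 35232 were found in both and 11672 had at least 5 reads in each. The counts chose the models, so their abundance is given as a description. A smaller count of exactly 5 was held by 252 models, and 399 further shared chains with a smaller count of exactly 4 fell just outside.

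A gene can make such a shorter RNA in several ways. An inner promoter starts transcription inside the gene, and the resulting RNA has its own first exon and often codes for a shorter protein. A read can also begin downstream because the RNA was broken or because the copying enzyme, which moves from the poly(A) tail towards the 5′ end, stopped early. Retention of the first intron gives another form, with the annotated start kept and 1 intron fewer. The start of the first exon, set against annotated starts, exons and introns, is the measurement described here.

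The samples form 1 group: heart tissue of male B6CASTF1/J mice, the first-generation cross of C57BL/6J and CAST, aged 14 days, with 2 libraries named replicate 1 and replicate 2. Each tissue sample was taken from 3 males per the labels, with 1 donor named for both libraries. The libraries are numbered as biological replicates 1 and 2, and the labels give their tissue samples different numbers. The descriptions of both libraries name the same tissue sample, so the spread between them may be technical or biological. Reference genes held 1059016 reads in replicate 1 and 1064679 in replicate 2. The 10 cardiomyocyte markers were all detected, at 5.63% and 5.51% of these reads, lung markers were at 0 reads in both libraries, and the 4 thymus markers held 0 and 67 reads. Markers of skeletal muscle, brain and liver held at most 9 reads in a library. The tissue holds other cell types than cardiomyocytes, and fewer cells of a type and less RNA per cell cannot be told apart.

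The sequences around the starts of 6 models are shown first. The start classes below were set from positions, not from these bases. The spliced annotated transcript (GENCODE M21) is given, with the 30 bases before the start in lower case and the first 30 bases of the model in capitals.
Actn2, exon 12, chr13:12288628-12288657, minus strand: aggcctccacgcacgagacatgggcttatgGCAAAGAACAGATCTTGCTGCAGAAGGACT
Pink1, exon 4, chr4:138318049-138318078, minus strand: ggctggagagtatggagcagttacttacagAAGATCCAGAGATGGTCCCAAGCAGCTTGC
Hrc, exon 3, chr7:45337887-45337916, plus strand: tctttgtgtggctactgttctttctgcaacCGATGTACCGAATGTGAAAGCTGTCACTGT
Myl3, exon 4, chr9:110767908-110767937, plus strand: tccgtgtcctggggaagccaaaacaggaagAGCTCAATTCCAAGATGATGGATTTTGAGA
Atp2a2, exon 8, chr5:122469785-122469814, minus strand: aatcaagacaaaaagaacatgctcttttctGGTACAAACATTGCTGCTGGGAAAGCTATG
Mov10l1, exon 17, chr15:89020421-89020450, plus strand: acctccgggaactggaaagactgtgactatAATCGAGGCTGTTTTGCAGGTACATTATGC
The positions are on mm10 and cover the capitals. In Actn2, Pink1, Hrc, Myl3 and Atp2a2 the first capital is the first base of an annotated internal exon. In Mov10l1 it lies 160 bases inside the exon, at an annotated start.

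For 4 other models a RefSeq start lay within 50 bases of the model's start in both libraries, and the RefSeq promoter window (GRCm38.p6) is given from 100 bases before the RefSeq start, with the bases from the start of the model in replicate 1 onwards in capitals. The positions cover the whole window.
Atp5f1, chr3:105959234-105959363, minus strand: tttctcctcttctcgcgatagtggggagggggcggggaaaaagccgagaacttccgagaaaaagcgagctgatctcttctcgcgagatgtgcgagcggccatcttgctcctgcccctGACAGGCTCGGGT
Ece1, chr4:137920693-137920792, plus strand: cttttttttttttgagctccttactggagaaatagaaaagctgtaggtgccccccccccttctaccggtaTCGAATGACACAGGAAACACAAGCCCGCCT
Ak1, chr2:32628290-32628419, plus strand: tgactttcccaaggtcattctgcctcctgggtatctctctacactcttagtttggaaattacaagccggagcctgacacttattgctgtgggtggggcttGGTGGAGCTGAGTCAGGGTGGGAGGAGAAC
Asb4, chr6:5390310-5390439, plus strand: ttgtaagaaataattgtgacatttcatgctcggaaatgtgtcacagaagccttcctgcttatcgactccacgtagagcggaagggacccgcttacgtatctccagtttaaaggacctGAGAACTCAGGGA
The Ece1 model begins 30 bases before the RefSeq start, and the Atp5f1 and Asb4 models begin 17 bases after it in replicate 1.

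The 1376 models held 40993 reads in replicate 1 and 39213 in replicate 2. This was 3.87% of the reads on reference genes in replicate 1 (95% exact Clopper-Pearson interval 3.83 to 3.91) and 3.68% in replicate 2 (3.65 to 3.72), intervals that cover counting error only. All 3′-keeping incomplete multi-exon models together held 6.61% and 6.60%, and 12367 and 13063 of them rested on 1 read. The models had a median of 11 and 12 reads, and the range was 5 to 2264 in replicate 1 and 5 to 2185 in replicate 2. Reads were concentrated: the 10 highest models held 27.1% and 24.4% of them. A single model was found in 557 genes, and 11 genes had 10 or more. The median model lacked 3 introns of the annotated transcript that missed the fewest (the parent), 412 models lacked only the first intron, and 308 lacked 10 or more.

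**Figure D1:**
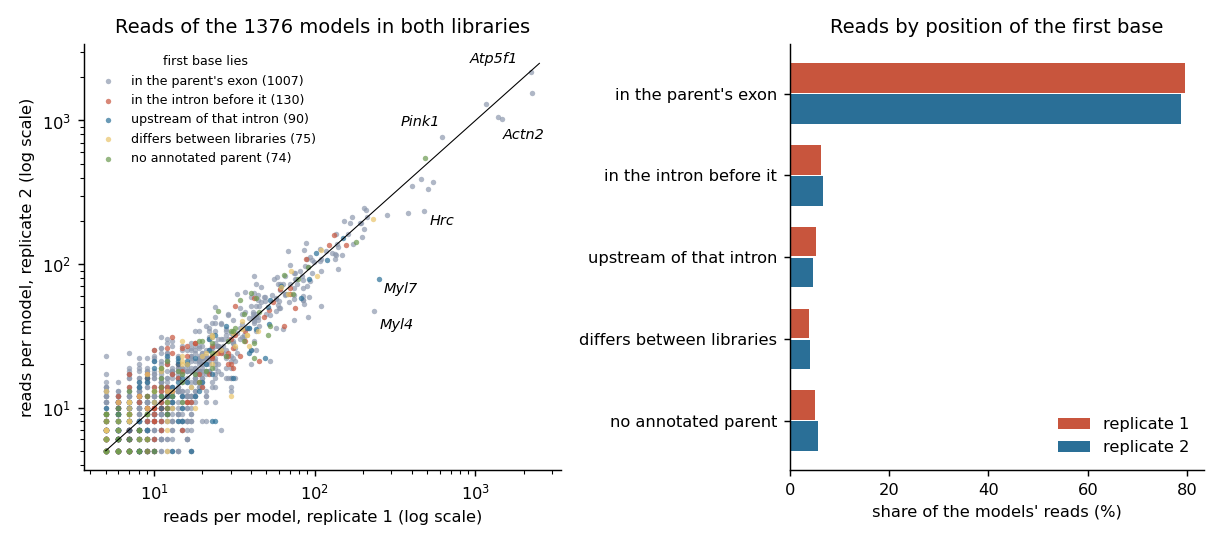
The left plot gives the reads of each of the 1376 models in replicate 1 (x axis) and replicate 2 (y axis), both on log scales, coloured by where the first base lies against the parent, with the line of equal counts. The right plot gives the share of the models' reads in each position class, with replicate 1 above replicate 2. Models that start in an exon of the parent hold 79.5% of the reads in replicate 1 and 78.8% in replicate 2, and Myl4 and Myl7 lie farthest below the line of equal counts among models with over 200 reads in replicate 1.

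The first base lay in an annotated exon of the parent in both libraries in 1007 models (73.2%). It lay in the intron just upstream of that exon in 130 models (9.4%). In 90 models (6.5%) it lay upstream of that intron of the parent, so that the parent's whole intron was kept as exon. The position differed between the libraries in 75 models, and for 74 models, 34 of them of Myh6, no GENCODE transcript of the gene ended with the same introns. Of the models with a coding parent, 975 began 3′ of the parent's start codon and 205 began 5′ of it in both libraries. The start codon was kept by 92 of 1007 models that began in an exon, by 45 of 130 that began in the intron and by 50 of 90 that kept the whole intron. These totals include models with a noncoding parent, 53, 7 and 9 in the same order. They also include 19, 7 and 0 whose parent has no annotated start codon.

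Starts in an exon coincided with annotated positions to the base. Of the 1007 models, 722 in replicate 1 and 736 in replicate 2 began at an annotated exon's first base or 5′ of the nearest such edge. That edge can be of another transcript. Exactly at that base in both libraries began 676 models. In the 2 libraries 35 and 27 began 1 to 10 bases inside the exon, 46 and 52 began 11 to 50 bases inside, and 204 and 192 more than 50 bases inside. Of the 167 models that began more than 50 bases inside in both libraries, 86 began at an annotated transcript start, and 134 began at the same base in both libraries. How the ends of a model were set is not given in the sources used here, so a start at the first base of an exon cannot be told apart from a read end set to that position. Across all members the start was the same base in both libraries in 1107 models (80.5%) and within 50 bases in 1194 (86.8%). Of the 127 models that matched no annotated position in either library, 76 still began at the same base in both and 89 within 50 bases.

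Other model classes with the same count minimum showed another pattern. An exact annotated start was held by 28.6% of the members in replicate 1 and 28.5% in replicate 2, against 96.5% in both libraries of 85 incomplete models that keep the 5′ end, 98.0% and 97.6% of 901 new combinations of known splice sites, and 86.9% and 87.5% of 375 models with a new splice site. The authors' class definition fixes part of this difference, since a model that lacks the first intron rarely reaches the first exon. An exact exon start that is no transcript start was held by 56.4% and 57.2% of the members, against 0.7% and 0.6% of the new combinations and none of the models with a new splice site.

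**Figure D2:**
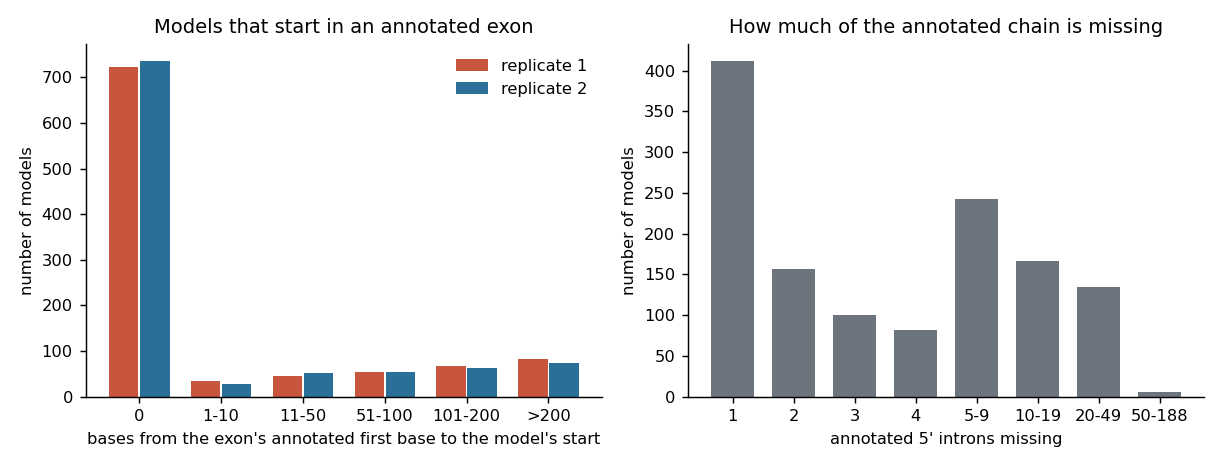
The left plot counts the 1007 models that start in an exon by the distance in bases from the exon's annotated first base to the model's start, in replicate 1 and replicate 2. The right plot counts models by the number of annotated 5′ introns they lack. The bar at 0 bases, which also takes starts 5′ of the nearest annotated exon edge, holds 722 and 736 models. In the right plot 412 models lack a single intron.

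Along an annotated transcript the chains can be ordered by the exon in which they begin, and 164 of 1258 models that could be compared had at least 5 times the reads of the larger neighbouring step in both libraries (counts under 3 were set to 3). This held for 113 of 979 models that began in an exon (11.5%), 24 of 123 that began in the intron (19.5%) and 18 of 84 that kept the whole intron (21.4%). The whole chain of the annotated transcript was not counted as a neighbouring step. A model that lacked only the first intron was therefore compared with the next step downstream alone. Among all members, these were 237 of 1007 exon starts, 78 of 130 intron starts and 58 of 90 that kept the whole intron. The shares thus rest on unlike comparisons, and a difference between them was not tested. The profiles described next were chosen after their values were seen.

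Actn2 encodes alpha-actinin, which crosslinks actin filaments at the Z-disc. The chain that begins at exon 12 had 1376 reads in replicate 1 and 1061 in replicate 2 (1148 ± 214 CPM, counts scaled to the library's reads on reference genes, SD, n = 2). The chains that begin at exons 11 and 13 had 20 and 9 reads in replicate 1 and 16 and 17 in replicate 2, and the whole chain had 2074 and 2384. The exon 12 chain thus stood 68.8 and 62.4 times above its larger neighbour, held 36.6% and 28.1% of the gene's reads and began 1515 transcript bases after the parent's first base.

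Pink1 encodes a kinase that marks damaged mitochondria for removal. Its chain from exon 4 had 623 and 768 reads, against 335 and 321 for the whole chain and 11 and 9 for the chain from exon 3. The exon 4 chain took 58.5% of the gene's reads in replicate 1 and 62.9% in replicate 2, more than the whole chain in both. Hrc encodes the histidine-rich calcium-binding protein of the sarcoplasmic reticulum. Its chain from exon 3 had 477 and 233 reads, the whole chain 32 and 33, the chain from exon 2 only 2 and 1, and the chain from exon 4 16 and 6. The members of Hrc together made up 90.8% and 83.9% of the gene.

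Myl3, a ventricular essential myosin light chain, had 457 and 393 reads on the chain from exon 4, against 68 and 62 from exon 3, 15 and 9 from exon 5 and 7658 and 7465 on the whole chain. Atp2a2, the calcium pump of the sarcoplasmic reticulum, had 171 and 213 reads on the chain from exon 8 against 11 and 18 from exon 9, while the whole chain had 4546 and 5726. Ndufs7, a subunit of respiratory complex I, had 510 and 334 reads on the chain from exon 7. This was 38.8% and 31.6% of the gene. Apart from the whole chain, Actn2, Pink1, Hrc, Myl3 and Atp2a2 each peaked at the same exon in both libraries.

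Further high models began at the first base of an exon. Ndufa4, annotated as a subunit of the respiratory chain, had 1472 and 1022 reads on a model of 2 exons, 50.3% and 49.7% of the gene. Cdh13, a cadherin without a cytoplasmic tail, had 162 and 163 reads from exon 2 (57.2% and 59.7% of the gene), Hnrnpa2b1, an RNA-binding protein, 202 and 175 from exon 9, and Ckm, the muscle creatine kinase, 196 and 153 from exon 6.

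In Myh6, the alpha myosin heavy chain, every exon from 2 to 38 carried a step in both libraries, as did every exon from 2 to 20 in Atp2a2. Myh6 had 72 members, the most of any gene. The whole chain had 7609 and 9145 reads, the chain from exon 2 1159 and 1309, and the chain from exon 26 404 and 347. The lowest step, from exon 6, had 5 and 10 reads. The Col4a1 profile, from a collagen chain of the basement membrane, was lower, with 25 members, a whole chain of 208 and 321 reads and no step above 24 reads in replicate 1 or 34 in replicate 2.

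**Figure D3:**
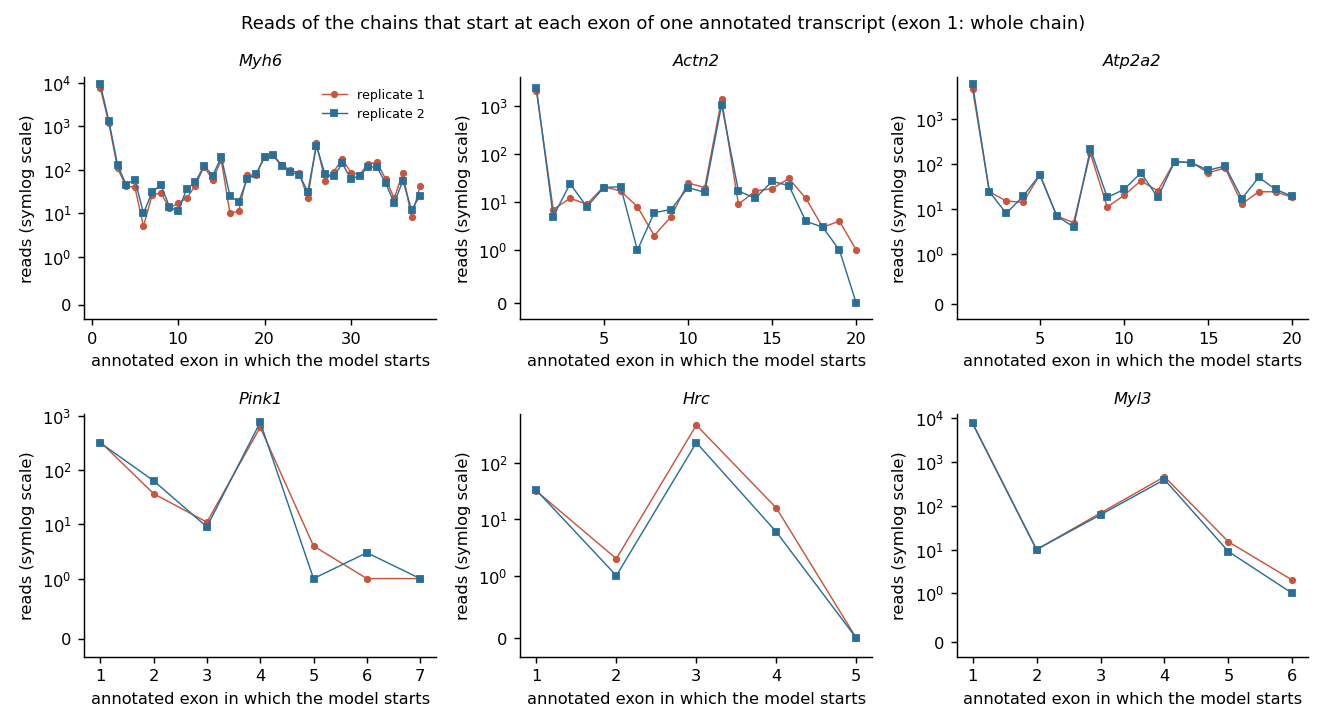
Each plot follows 1 annotated transcript and gives, for each exon in which a chain begins (x axis), the reads of that chain in replicate 1 and replicate 2 (y axis, symmetric log scale, linear below 1). Exon 1 stands for the whole chain. Actn2 peaks at exon 12 with 1376 and 1061 reads, Pink1 at exon 4 with 623 and 768, Hrc at exon 3 with 477 and 233, and Myh6 carries steps along its whole length.

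Models that begin within an exon, away from its edge and from any annotated start, numbered 78. The highest was a model of Acadm, the medium-chain acyl-CoA dehydrogenase of fatty acid oxidation, with 190 and 193 reads. It began 246 bases inside exon 11 at the same base in both libraries, and stood 63.3 and 64.3 times above its larger neighbouring step, taken as at least 3 reads. Naca, a chaperone of nascent peptides whose long muscle form carries an extra large exon, had 83 and 82 reads on a model that began 3159 bases inside exon 3, with the starts 74 bases apart between the libraries. Of these models, 51 of the 76 with a parent began at the same base in both libraries, although no annotated position stood there.

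The 130 models whose first base lay in the upstream intron have a first exon that ends at an annotated donor and begins 5′ of the parent's exon. Of these, 8 began within 50 bases of an annotated exon edge that lay nearer than any annotated start, some of them the edge of another transcript. Models at an annotated start, such as that of Tspan12, could also lie within 50 bases of an edge. The start was the same base in both libraries in 124 of them, and in 115 it was exactly an annotated start. In 69 an annotated transcript had the same first exon, which belonged to a coding transcript in 16 and only to transcripts of other types, such as retained intron, in 53. A start in an intron can come from an alternative first exon or from a read of RNA with that intron kept, and in these counts they cannot be told apart. The first exon extended a median of 134.5 bases before the parent's exon, and 107 of 130 starts lay over 1000 bases 3′ of the gene's 5′-most annotated start.

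Several of these models made up a large share of their gene. Serping1, the C1 inhibitor of the complement cascade, had 122 and 135 reads on the model from its intron start, 77.2% and 85.4% of the gene. Tspan12, a tetraspanin of retinal vessel signalling, had 88 and 109 reads (80.0% and 78.4%), from a coding start only 2 bases before the annotated exon. Fdft1, the squalene synthase, had 30 and 20 reads (93.8% and 80.0%), and Rap1gap, which switches off the GTPase Rap1, 13 and 31 reads (72.2% and 73.8%), both from starts annotated only for transcripts of the retained intron type. Asb4, a subunit of a ubiquitin ligase known from blood vessels, had 11 reads in each library, 84.6% and 100% of the gene.

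Genes whose shorter forms are known from other work were among them. Gpsm1 encodes an activator of G-protein signalling, and a short form that lacks the N-terminal repeats is known from rat heart. Its 2 members began at the same base, 23916 bases 3′ of the 5′-most start, and had 70 and 68 reads on the first and 55 and 54 on the second, 61.9% and 61.3% of the gene together. Pde2a, a cyclic nucleotide phosphodiesterase with several N-terminal variants, also had 2 members from a single start, at 29625 bases, with 32 and 51 reads on the first and 30 in each library on the second. Together they held 67.4% and 71.7% of the gene. Mdm2, the ligase that degrades p53, has a known second promoter in its first intron. Its model, with 23 reads in each library (34.3% and 28.1% of the gene), began in the first intron at an annotated start and kept the start codon. The start of Pde2a is annotated only for a transcript of the retained intron type. Those of Gpsm1 and Mdm2 are annotated only for transcripts of the processed transcript type.

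Dgat2, which makes triacylglycerol, had 132 and 160 reads (11.5% and 15.1% of the gene) from an annotated start 12613 bases downstream. Bves, a membrane protein of heart and skeletal muscle that binds cyclic AMP, had 70 and 62 reads (41.4% and 33.2%) on a model of 3 exons, and Cish, a suppressor of cytokine signalling, 61 and 67 reads with starts 854 bases apart. The starts of Dgat2 and Bves are annotated only for transcripts of the retained intron type. Mov10l1 belongs here by its start, although that base lies in an exon of the parent. The gene has a known heart form, called CHAMP, made from an inner promoter that responds to the transcription factor MEF2. The model from exon 17 had 75 and 86 reads, 60.0% and 71.1% of the gene, from the same annotated start in both libraries.

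**Figure D4:**
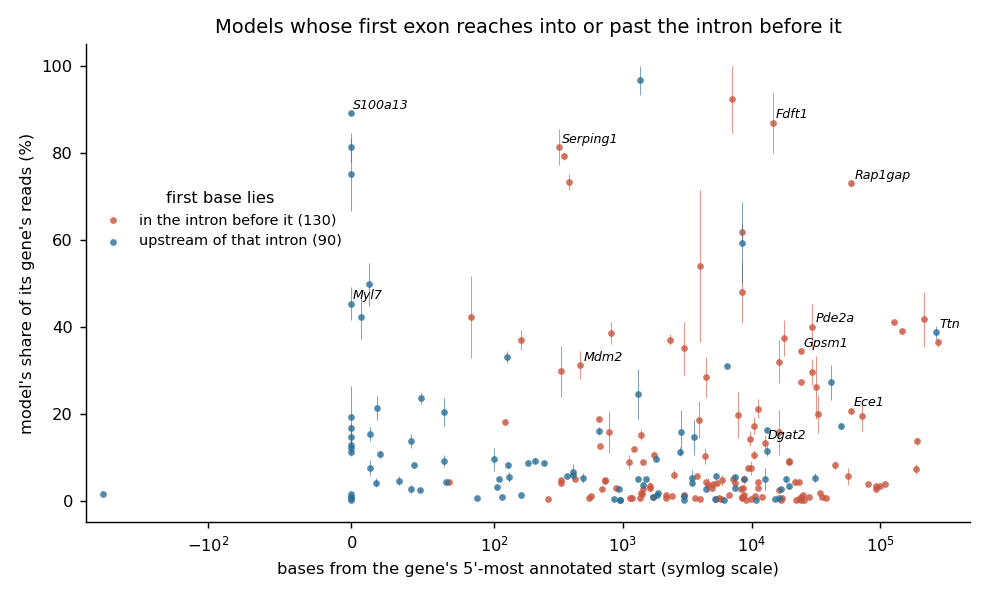
Each point is a model whose first base lies in the intron before its parent's exon (130) or upstream of that intron (90), placed by the bases from the gene's 5′-most annotated start (x axis, symmetric log scale) and by its share of the gene's reads (y axis, mean of the libraries, with a line between the values of replicate 1 and replicate 2). Models that keep the whole intron lie at a median of 409 bases, against 8002 for intron starts, and intron starts with over 50% of the gene reach 59263 bases (Rap1gap).

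Starts upstream of the annotated exon with neither an annotated start nor an annotated exon edge within 50 bases were rare. Of 11 models of this kind, of which 6 began in the intron, 4 upstream of it and 1 at positions that differed, 9 began within 50 bases of each other in the libraries: Chchd10, Ece1, Gm49027, Myom1, Pygm, Mdh2, Gm45713, Rrad and Kxd1. They had between 5 and 30 reads in a library. Ece1 encodes endothelin-converting enzyme 1, whose isoforms are known to arise from alternative promoters. Its model had 19 reads in replicate 1 and 17 in replicate 2, 21.1% and 20.2% of the gene, and began at the same base in both, 7081 bases from the nearest GENCODE start but 30 bases from the RefSeq start whose window is shown above. Myom1, a crosslinker of the M-band, had 15 and 18 reads from a start 2035 bases before its exon, and Pygm, the muscle glycogen phosphorylase, 14 and 16. Mdh2, the mitochondrial malate dehydrogenase, had 17 and 11 reads with starts 6 bases apart.

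In the 90 models that kept the whole upstream intron, 58 lacked the first intron only, and 84 began exactly at an annotated start. The kept intron was short, with a median of 171 bases, against 1576 bases for the introns in which the other 130 models began. Myl7, the atrial regulatory light chain, had 250 reads in replicate 1 and 79 in replicate 2 on such a model, which began at the gene's 5′-most start and held 41.5% and 49.1% of the gene. Eif4g2, a translation factor, had 150 and 152 reads (17.0% and 13.8%), Hnrnpf, a splicing regulator, 102 and 120 (31.0% and 30.7%), and S100a13, a calcium-binding protein, 40 and 25 (88.9% and 89.3%). Of these 90 models, 11 began at the gene's 5′-most annotated start in both libraries, and 38 began over 1000 bases 3′ of it.

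RefSeq gave a second annotation against which starts could be set. A promoter window was found for 1104 members through the gene identifiers. The start lay within 50 bases of the same RefSeq start in both libraries in 42 of them: 25 of 65 models that kept the whole intron, 9 of 100 intron starts, 4 of 808 exon starts and 4 models without a GENCODE parent. In 26 of the 42 this was the gene's 5′-most RefSeq start. The member with the highest mean CPM belongs to these. Atp5f1, subunit b of ATP synthase (Atp5pb in RefSeq), had 2201 and 2185 reads (2065.3 ± 18.4 CPM, SD, n = 2), or 96.3% and 95.8% of the gene, on a model that lacks only the first GENCODE intron. Psmc2, an ATPase of the proteasome, and Ethe1, a mitochondrial sulfur dioxygenase, had 98.6% and 96.4%, and 95.9% and 98.6%, of their gene on a model from the first base of exon 2. In both genes a RefSeq start lay further inside that exon, 97 bases in Psmc2 and 281 bases in Ethe1. Among 580 such exon-edge models with a RefSeq window these were the 2 cases.

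The other 16 members sat at an inner RefSeq start, among them models of Prkar1a, Hnrnpf, Banf1, Ak1, Maged2, Celf2, Asb2, Asb4, Lmo7 and Ece1. Prkar1a, the regulatory subunit of protein kinase A, had 152 and 199 reads (16.8% and 18.1% of the gene), and Banf1, a protein that binds DNA to the nuclear envelope, 75 and 49 (41.0% and 36.0%). Ak1, the muscle adenylate kinase, had 37 and 34 reads, and Asb2, a ubiquitin ligase subunit with a known muscle form, 5 and 6. The windows at these inner starts (250 bases before to 50 after) had a median GC content of 56.7% against 55.0% at the 5′-most RefSeq start of the same genes and 52.7% over all 32851 windows. In Ndufa5, Ly6c1 and Plin5 the inner start lay 164, 174 and 250 bases from the 5′-most start. Their inner and 5′-most windows therefore overlap and share bases. The letters GGGCGG, read on both strands in the 250 bases before the start, stood in 9 of 16 inner windows (56.2%), 6 of 16 5′-most windows (37.5%) and 32.7% of all. CCAAT, read the same way, stood in 2 of 16 (12.5%), 6 of 16 (37.5%) and 33.8%. TATAAA in the last 50 bases before the start was found in 0 of 16 inner windows, 0 of 16 5′-most windows and 3.5% of all. CATTCC, searched over the whole window, stood in 0 of 16, 1 of 16 (6.25%) and 14.7%. A match is a run of letters and no evidence of binding.

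Over the 696 genes with a member and at least 20 reads in each library, the members' share of the gene's reads had a median of 9.82%. It was above 50% in 42 genes and below 5% in 209. The 8 genes with the highest shares and at least 50 reads in each library were Atp5f1 (98.2% and 98.2%), Psmc2, Ethe1, Msra (92.1% and 95.3%), Hrc, Serping1, Tspan12 and Ctsa (82.5% and 75.6%). The members of Mov10l1 held 70.4% and 81.8% of the gene. Msra repairs oxidised methionine, and its model of 58 and 81 reads began at an annotated start in exon 6. Ctsa is the lysosomal protective protein, and the starts of its model with 230 and 206 reads lay 881 bases apart. The genes with the most members were others. Among them were Myh6 with 72, Col3a1 32, Col4a1 25, Col4a2 18, Atp2a2 and Mybpc3 17 each, Actn2 and Ogdh 13 each, and Eef2 11. In Mybpc3, the cardiac myosin-binding protein C, they held 72.1% and 69.2% of the gene, spread over many starts, the highest with 74 and 87 reads. In Col3a1, a fibrillar collagen, they held 10.7% and 9.11%.

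**Figure D5:**
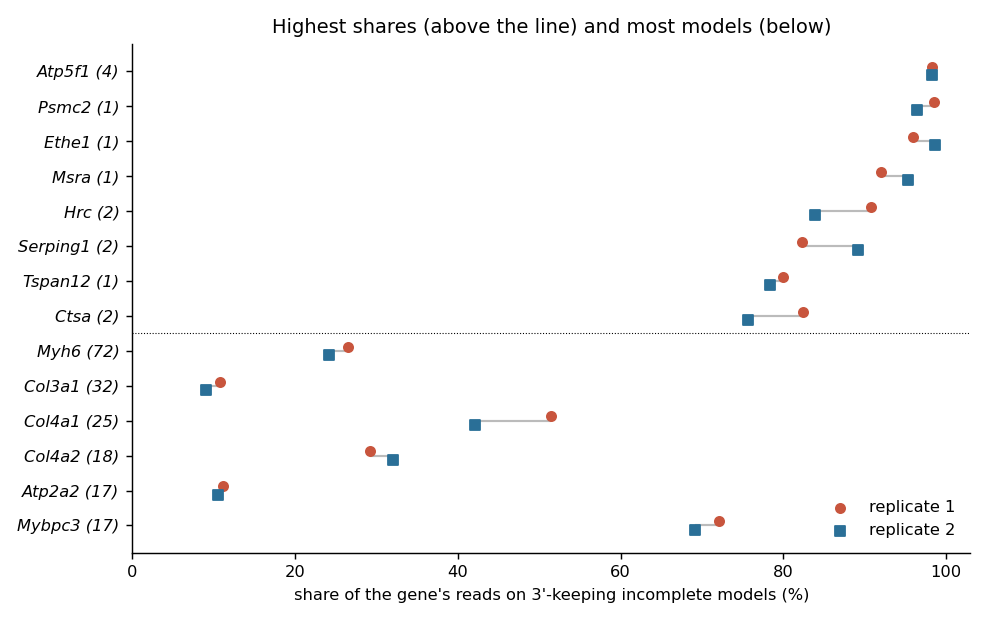
The x axis gives the share of a gene's reads on the members in replicate 1 (circles) and replicate 2 (squares), with the number of members in brackets. The 8 genes with the highest share are above the dotted line and the 6 with the most members below. Atp5f1 lies at 98.2% in both libraries, and Myh6, with 72 members, at 26.5% and 24.2%.

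Groups of genes held different numbers of members, beside a background of 12.2% of the 5693 genes with at least 20 reads in each library that had a member. Of the sarcomere list 16 of 20 genes, 19 of them with 20 reads in each library, had a member, with 157 members and 12.7% and 12.2% of the list's reads. Of the mitochondrial energy list 28 of 29 genes had 1, all 29 at that depth, with 129 members and 5.20% and 4.48% of the reads. These lists hold highly expressed genes, and the count minimum favours such genes. Calcium handling had 27 members in 7 of 12 genes (9.0% and 7.41%), all 12 at that depth. Extracellular matrix had 95 in 10 of 21 genes (16.8% and 16.0%), 19 at that depth. The giant and membrane skeleton proteins had 7 in 4 of 17 genes (10.5% and 12.2%), of which only 9 reached that depth. Of the matrix members 85 of 95 began at an exon edge, against 774 of all 1376 members. Most of the 95 came from Col3a1 (32), Col4a1 (25) and Col4a2 (18), so the contrast mainly describes these collagen genes.

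A list of 18 genes known for downstream promoters or inner starts, such as Dmd, Speg, Wnk1 and Tpm1, gave 11 members in 4 genes: Ttn, Tpm1, Palld and Ank1. Of the 18 genes, 11 had at least 20 reads in each library, the depth at which 12.2% of all genes had a member. Ttn encodes the giant spring protein titin, and its annotated parent transcript has 192 exons. No read carried the whole chain. A model from exon 187 had 43 and 35 reads, with a first exon that ran through upstream introns and starts 1792 bases apart, and a model that began 649 bases inside exon 189 had 14 and 18. Together they held 53.3% and 56.4% of the 107 and 94 reads of the gene. Tpm1, tropomyosin, had 6 members at 0.98% and 0.68% of the gene, of which a single one, with 30 and 21 reads, began at an annotated start. Palld, an actin-bundling protein, had models of 12 and 24 and of 9 and 22 reads. Ank1, whose short muscle form from an inner promoter ends in the last exons, had 9 reads in each library on a model from exon 38. Only 1 of the 11 members, that of Tpm1, was classed at an annotated start in both libraries. The Ank1 model was thus not of that class, and whether it is the short form was not tested.

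Between the libraries 1266 of 1376 models (92.0%) lay within 2-fold of each other in CPM, which the minimum of 5 reads in each library partly imposes. Over 8793 matched models the chi-square per degree of freedom between the libraries was 2.69, more than counting error alone gives. In a two-sided exact binomial test against the library totals, which compares these libraries on counting error alone, 12 members passed the threshold with more reads in replicate 1 and 4 with more in replicate 2, after Benjamini-Hochberg adjustment over all 13276 models tested. The background was 1.11% of all tested models higher in replicate 1 and 0.874% in replicate 2, against 0.87% and 0.29% of the members. Among the 11672 models with at least 5 reads in each library, the minimum that the members also met, the shares were 1.25% and 0.87%. The members' median log2 ratio of replicate 1 over replicate 2 was 0.01, against -0.07 over all models tested and -0.05 over those 11672.

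Myl4, the atrial essential light chain, had 233 reads in replicate 1 and 47 in replicate 2 on its chain from exon 3 (log2 ratio 2.29, adjusted p = 9.9e-28 in the exact binomial test). Myl7 (log2 ratio 1.66, adjusted p = 3.3e-19) was the second, and both encode light chains of the atria. The share of Myl7 on its member was 41.5% and 49.1%, and the whole gene had 602 and 161 reads. The gene of Myl4 had 586 and 182. Hrc was higher by 1.04 (adjusted p = 9.6e-18), and its gene had 543 and 285 reads. Dkk3, a secreted relative of the Wnt inhibitors, had 53 and 21 reads (1.30, adjusted p = 0.016), and Myl2, the ventricular regulatory light chain, 91 and 43 on the same side. The others included models of Psma7, Ndufs7, Atp5b, Actn2 and Ndufa4. With the length trend removed, the log2 ratio of Atp5b was 0.11 (adjusted p = 0.46) and that of Hrc 0.53 (adjusted p = 0.00081). Those higher in replicate 2 were Xirp2, which binds actin filaments, at 5 and 23 reads (-1.98, adjusted p = 0.049) with starts 3988 bases apart, and Lpl, the lipoprotein lipase, at 42 and 82 (-0.94, adjusted p = 0.028). Etfa, an electron carrier of fatty acid oxidation, lay at 68 and 124 (-0.85, adjusted p = 0.006) and Pink1 at -0.29 (adjusted p = 0.012). With edgeR's exact test and a common dispersion 2 members passed as higher in replicate 1 and 0 as higher in replicate 2, with 45 members at an unadjusted p under 0.05. That dispersion was estimated from these same 2 libraries taken as 1 group. It already holds the difference being tested, so fewer calls were partly built in. With a trend on model length removed 6 and 1 were left, among them Myl4, Myl7, Dkk3, Hrc and Actn2 in replicate 1 and Etfa in replicate 2. The calls of Ndufs7, Ndufa4, Atp5b, Psma7, Myl2, Xirp2, Lpl and Pink1 were among those lost.

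The share of a gene's reads on its members differed between the libraries in 4 of 3488 genes (two-sided Fisher's exact test, Benjamini-Hochberg adjusted). It was higher in replicate 1 in 3 genes (0.086% of the 3488) and in replicate 2 in 1 (0.0287%). Only 696 of the 3488 genes had a member. The others had a share of 0 in both libraries and could not be called, though the adjustment ran over all 3488. Atp5b, the catalytic subunit of ATP synthase, had 25.4% and 18.7% (adjusted p = 4e-28), Actn2 41.7% and 33.4% (adjusted p = 1.6e-10) and Myh6 26.5% and 24.2% (adjusted p = 4.3e-06). Etfa had 4.74% in replicate 1 and 8.53% in replicate 2 (adjusted p = 0.043). Atp5b rests mainly on a model of 2 exons with 2264 and 1557 reads, which began at an annotated start. These p-values rest on counting error between 2 libraries and hold no spread between animals.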

How the data were processed

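The authors deposited, for each library, a count of reads per transcript model and an annotation with the introns of each model, per the file headers. The counts are whole numbers without normalization. The reference is GENCODE M21 on mm10, per the file headers and accompanying notes, and TALON is the source named for new models. How reads were aligned, how models were filtered and how a model's ends were set is not stated in these sources. Counts on reference genes, without spike-ins, set the totals for CPM, where 1 read was worth 0.944 CPM in replicate 1 and 0.939 in replicate 2. Models were matched between libraries by chromosome, strand and every intron.

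The parent is the annotated transcript with the fewest missing introns, and starts were compared with annotated exons and starts at a tolerance of 50 bases. The split by position against the upstream intron, the RefSeq comparison and the neighbouring steps were chosen after the data were seen. The members and gene lists were chosen with earlier results of these data known. By rule the text names the highest members, intron starts, annotated starts, called members, the downstream promoter list and genes with most members or the highest share, and other genes were chosen after their values were seen. Some genes that this rule selects are not reported here. Models with a summed count of at least 10 were tested by an exact conditional binomial test at a threshold of 0.05 (scipy 1.17.1). Log2 ratios are on CPM plus 1. Alternatives used edgeR 4.0.16 (TMM, exact test) and DESeq2 1.42.0 size factors. The test was run first on simulated data with known changes and counting error alone. Those data lacked the extra spread between these libraries (chi-square per degree of freedom 2.69), so the run does not show how the test behaves under it. Reads are not independent molecules, so intervals cover counting error only.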

Additional observations from a re-analysis of the deposited data

How the results depend on the processing

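The number of members follows the count minimum: 8942 at 1 read in each library, 671 at 10 and 317 at 20. In a single library, with the same minimum but without a shared intron chain, it ranged from 1893 to 2058. The 12 members higher in replicate 1 became 2 with edgeR's exact test and 6 with the length trend removed. The exact test took its dispersion from the 2 libraries that it compared, so a loss of calls was partly built in. The 4 higher in replicate 2 became 1 with TMM scaling, 1 with DESeq2 size factors, 1 with the length trend removed, 0 with no minimum summed count and 0 with edgeR's exact test. Genes with a higher member share in replicate 1 rose to 8 when all 3′-keeping incomplete models were counted, an alternative chosen after seeing the data, and those in replicate 2 to 2, against 0 at a minimum of 10 reads per gene. Scaling by TMM or DESeq2 brought the median log2 ratio of all models to -0.001, against -0.07 as reported, and that of the members to 0.06, against 0.01.

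The class of starts at an exon edge or at an annotated start stayed within 1.5 times under every tolerance (0, 10, 100 and 200 bases). Starts inside an exon fell to 36 at 200 bases, to 2.84% of members at a minimum of 20 reads, and ranged from 107 to 119 when a single library set the class. Starts upstream of the exon, away from annotated starts and exon edges, ranged from 25 to 32 in a single library, against 11 where both had to agree. Agreement of starts was 84.2% at 10 bases and 88.9% at 100. The median distance to an annotated start was 1469.5 bases, and ranged from 1466.5 to 1485.5 in single libraries and reached 1652.0 at a minimum of 20 reads. The median of 3 missing introns became 4 against the longest matching transcript and 2 at a minimum of 20 reads. No paired analysis was possible because the libraries form 1 group. Depth limits a class with few models, since a member needs 5 reads in each library and 1 read is worth about 0.944 CPM.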
